A study of Homo sapiens with 6 samples.

Results

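The genes described here are the G1 cyclins, the kinases they activate and the inhibitors of those kinases: *CCND1*, *CCND2*, *CCND3* and *CCNE1*, *CDK4* and *CDK6*, and *CDKN1A*, *CDKN1B*, *CDKN2C* and *CDKN2D*. They were taken as a list of symbols, with earlier results of these data known but no threshold on their values, and are 10 of the 30017 genes in the count table. Of these, 9 were among the 14758 genes with enough counts for testing, and *CCND1* was not.

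In G1, D-type cyclins bind CDK4 or CDK6 and cyclin E binds CDK2, and the active kinases phosphorylate the RB pocket proteins, which frees E2F factors to switch on genes for DNA replication. The CIP/KIP inhibitors encoded by *CDKN1A*, *CDKN1B* and *CDKN1C* bind cyclin-CDK complexes broadly, whereas the INK4 inhibitors encoded by *CDKN2A* to *CDKN2D* bind CDK4 and CDK6 themselves. Macrophages formed from dividing precursors usually leave the cell cycle, and the balance of these genes is part of how blood cells do so.

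RNA-seq was performed in BLaER cells, a B cell leukemia line that carries an estradiol-activated CEBPA transgene and turns into macrophage-like cells. All 6 libraries came from 1 subclone, CTCF-AID (named BLaER1-CTCF-mAID in the methods), in which CTCF is fused to an auxin-inducible degron. The 0 h group was cultured without transdifferentiation factors, the 96 h control group received 17β-estradiol, IL-3 and CSF-1 for 96 h, and the 96 h CTCF-depleted group received the same factors together with indole-3-acetic acid (IAA, an auxin) from the start, with 2 biological replicates in each group. No line without the degron was treated with IAA among these libraries, so that the effects of IAA itself and of CTCF loss cannot be told apart. The groups thus ask how the G1 machinery changed during conversion, and whether that change differed when CTCF was depleted.

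Library totals ranged from 9273470 to 12718780 counts. The 10 B cell markers examined together summed to 3228 and 3250 CPM (counts scaled to the normalized size of each library) at 0 h, 400 and 404 CPM in control and 345 and 360 CPM in CTCF-depleted libraries, and all 10 fell in each change from 0 h. The 10 macrophage markers together amounted to 332 to 376 CPM at 0 h, 5438 to 5674 CPM in control and 5364 to 5433 CPM in CTCF-depleted libraries. In each change from 0 h, 9 of them passed, and *CEBPA*, which the line also carries as a transgene and which made up most of the 0 h sum, did not. *LYZ* made up most of the 96 h sums, at 4658 and 4396 CPM in control and 4168.5 and 4147 CPM with depletion. The sums at 96 h therefore say little about the other macrophage markers. *FCGR1A* and *CD163* were at 0 counts in both 0 h libraries. Between the 96 h groups, 3 B cell markers (*VPREB1*, *IGLL1* and *RAG1*) and 1 macrophage marker (*MRC1*) were lower, and the macrophage marker *ITGAM* was higher, with depletion. The part of these shifts in the results below was not tested. The transcript of *CTCF* itself was at 174 to 181 CPM in control and 189 to 191 CPM in CTCF-depleted libraries, which does not check a depletion that acts on the protein. In bulk RNA, fewer cells of a type and less RNA per cell cannot be told apart.

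A gene is said to have risen or fallen where edgeR's quasi-likelihood test gave an adjusted p (Benjamini-Hochberg over all genes tested) under 0.01 and an absolute log2 fold change above 0.6. From 0 h to 96 h control, 4 of the 9 tested genes rose (*CCND2*, *CDKN1A*, *CDKN2C* and *CDKN2D*), where 25.4% of all genes tested rose, and 4 fell (*CCND3*, *CCNE1*, *CDK4* and *CDK6*), where 22.9% of all genes fell. Both kinases and the cyclins *CCND3* and *CCNE1* were thus lower after conversion, and 3 of the 4 inhibitors were higher. From 0 h to 96 h CTCF-depleted, the same 4 genes rose, against 27.2% of all genes, and the same 4 fell, against 25.2%. Both of these comparisons share the 0 h libraries and are given side by side. Between the 96 h groups, 1 gene was higher with depletion (*CCND2*), where 5.41% of all genes were, and 1 was lower (*CDKN1A*), where 7.03% of all genes were. The shares of these genes were above those of all genes in both changes from 0 h, and rested on 1 gene in each direction between the 96 h groups.

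**Figure D1:**
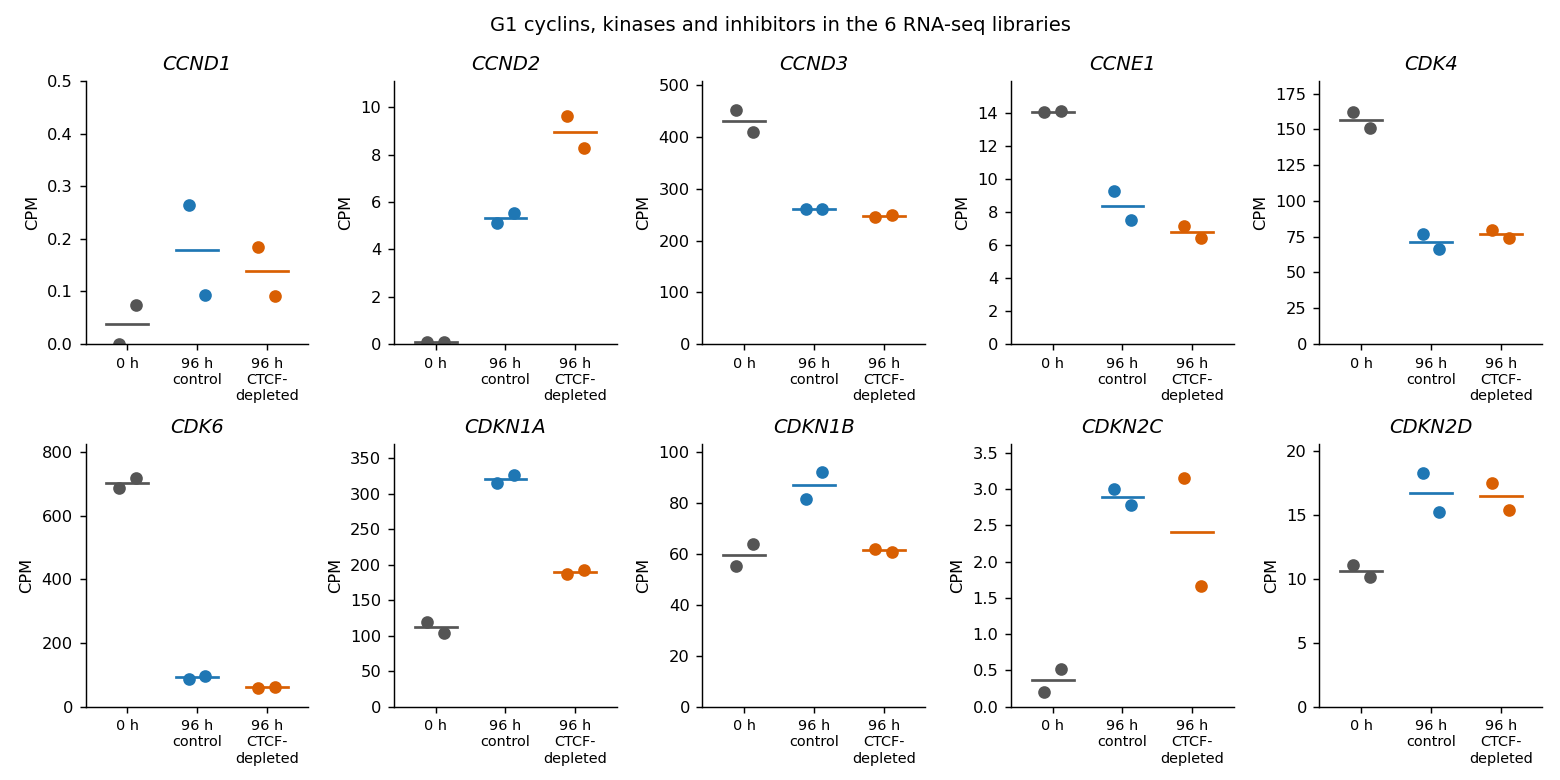
Normalized level in CPM (vertical axis, linear, from 0 and scaled per gene) of the 10 genes in each of the 6 libraries (points) with the mean of each group (line). *CDK6* dropped from 687 and 718 CPM to below 100 in every library at 96 h, and *CDKN1A* was highest in the control libraries, at 315 and 326 CPM.

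*CCND3*, which encodes cyclin D3, the D-type cyclin that pre-B cells depend on, was the dominant D-type cyclin of these cells. It was at 452 and 410 CPM at 0 h, 261 and 260 CPM in control and 245 and 250 CPM in CTCF-depleted libraries. The 0 h libraries were the highest, and the 2 groups at 96 h did not overlap but lay close together. *CCND3* fell by 0.72 on the log2 scale during conversion (SE 0.05, edgeR adjusted p = 2.04e-20), and the value with depletion against control was -0.08 (95% interval -0.17 to 0.02, edgeR adjusted p = 0.237). The gene lies at chr6:41934934-42050357 (hg38, minus strand).

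*CCND2*, which encodes cyclin D2, went from almost no reads to a low level. Both 0 h libraries had 1 count, the controls had 58 and 60, and the CTCF-depleted libraries had 104 and 90, which is 5.12 and 5.56 CPM in control against 9.63 and 8.29 CPM with depletion. The libraries at 96 h were all far above those at 0 h, and those with depletion were above both controls. At 2 counts over the 0 h group, the summed counts of the control group were 61.4 times higher after scaling by library size, with an exact 95% interval of 16.6 to 513 that covers counting error only, and those of the CTCF-depleted group 103 times higher, with an interval of 28.2 to 858. With depletion, *CCND2* was 1.68-fold above control (log2 fold change 0.75, SE 0.20, edgeR adjusted p = 0.00247). This call did not hold without control replicate 1, control replicate 2 or depleted replicate 1, where the log2 fold changes were 0.69, 0.81 and 0.64 and edgeR's adjusted p was 0.0447, 0.0201 and 0.0625, respectively, nor with DESeq2 (log2 fold change 0.76, adjusted p = 0.104). *CCND2* lies at chr12:4269771-4305353 (hg38, plus strand).

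*CCND1*, encoding cyclin D1, was not detectable as changed at this depth. Its counts were 0 and 1 at 0 h, 3 and 1 in control and 2 and 1 with depletion, where 3 counts correspond to 0.225 to 0.309 CPM. On a scale of CPM per kilobase of the canonical transcript, which allows levels of different genes to be compared, *CCND3* made up 100.0% of the D-type cyclin sum in both 0 h libraries, 99.3% in both control libraries and 98.8% and 99.0% in CTCF-depleted libraries. *CCND2* made up 0.608% and 0.662% of it in control and 1.21% and 1.03% with depletion. The D-type cyclin sum was 213 ± 14.5 CPM per kilobase at 0 h (SD, n = 2), 129.5 ± 0.304 in control and 123.6 ± 1.43 with depletion, and 74.8, 46.0 and 44.1 with the length of all annotated exons. The rise of *CCND2* thus came on top of a pool that consisted almost wholly of *CCND3* transcripts.

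*CDK6*, encoding a catalytic partner of the D-type cyclins that is prominent in blood cell precursors, showed the steepest decrease among the 9 tested genes. It was at 687 and 718 CPM at 0 h, 88.2 and 96.9 CPM in control and 58.8 and 63.3 CPM in CTCF-depleted libraries. None of the 3 groups overlapped. During conversion it fell by 2.93 on the log2 scale (SE 0.05, edgeR adjusted p = 1.09e-47), to 0.132 times its starting level, and only 463 of the genes tested (3.14%) had a lower log2 fold change. With depletion it was at 0.66 times the control level (95% interval 0.605 to 0.721), and the log2 fold change of -0.599 (SE 0.06, edgeR adjusted p = 1.04e-11) stopped just short of the fold threshold. It passed that threshold without control replicate 1 or depleted replicate 2, with log2 fold changes between -0.67 and -0.53 over the libraries left out. *CDK6* lies at chr7:92604921-92836573 (hg38, minus strand).

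*CDK4*, the other partner of the D-type cyclins, fell less than *CDK6*, and its levels in the 96 h groups overlapped. It was at 162 and 151 CPM at 0 h, 76.6 and 66.1 CPM in control and 79.4 and 74.3 CPM in CTCF-depleted libraries. The 0 h libraries were clearly higher, while the 96 h groups overlapped. *CDK4* fell by 1.13 on the log2 scale during conversion (SE 0.07, edgeR adjusted p = 1.96e-22), and with depletion the log2 fold change was 0.11 (95% interval -0.04 to 0.25, edgeR adjusted p = 0.25). The gene lies at chr12:57747727-57756013 (hg38, minus strand), and *TSPAN31* overlaps it on the other strand with 83 to 198 counts per library. The strand setting of the counting is not given in the sources used here, and *TSPAN31* had log2 fold changes of 0.58 during conversion, opposite to the fall of *CDK4*, and 0.49 with depletion.

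The makeup of the kinase pair shifted towards *CDK4*. Per kilobase of the canonical transcript, *CDK4* was at 87.1 and 81.1 CPM at 0 h and *CDK6* at 58.9 and 61.6, so that *CDK6* contributed 40.4% and 43.2% of the sum. Its share was 15.5% and 19.0% in control and 10.58% and 11.98% in CTCF-depleted libraries, and the 3 groups did not overlap. The sum of both kinases was 144.3 ± 2.33 CPM per kilobase at 0 h (SD, n = 2), 46.2 ± 3.45 in control and 46.5 ± 1.66 with depletion, and 108.1, 30.6 and 29.8 with the length of all annotated exons. Which kinase was higher at 0 h depended on the length used: with the length of all annotated exons, a choice added after seeing the data, *CDK6* held 53.1% of the sum at 0 h, 24.8% in control and 16.7% with depletion.

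**Figure D2:**
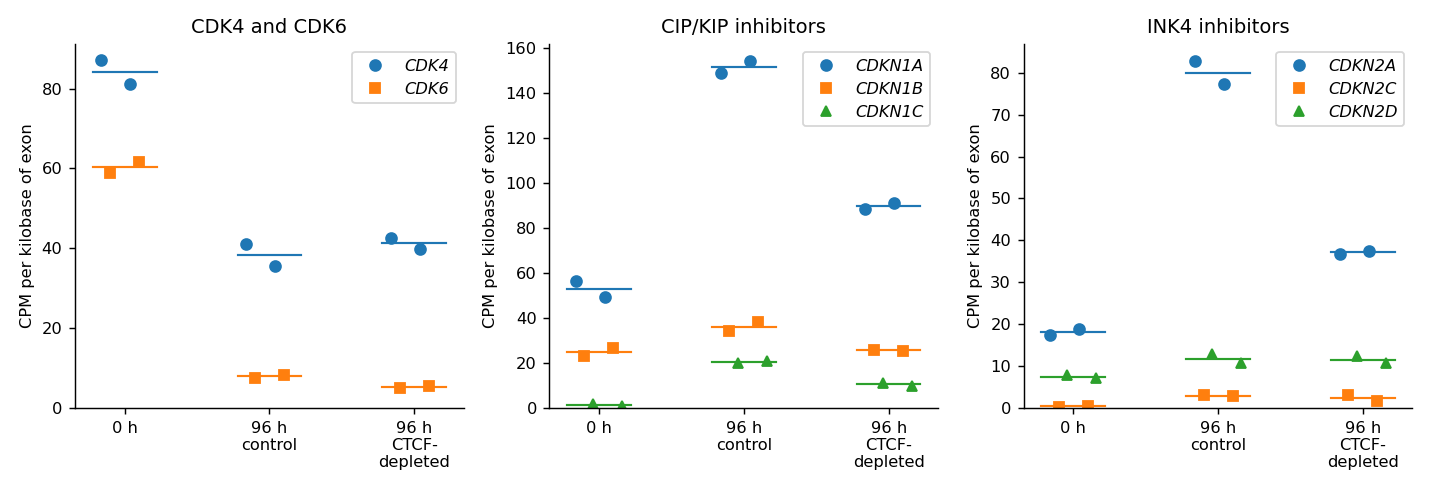
Level in CPM per kilobase of exon of the canonical transcript (vertical axis, linear, from 0) in each of the 6 libraries (points) with the mean of each group (line), for *CDK4* and *CDK6*, the CIP/KIP inhibitors and the INK4 inhibitors. *CDK6* fell further than *CDK4*, and *CDKN1A*, *CDKN1B*, *CDKN1C* and *CDKN2A* peaked in the control libraries.

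*CCNE1*, encoding cyclin E1, the partner of CDK2 at the entry into S phase, fell during conversion. It was at 14.03 and 14.10 CPM at 0 h, 9.27 and 7.50 CPM in control and 7.13 and 6.45 CPM in CTCF-depleted libraries. The groups did not overlap, although the nearest control and depleted libraries were close. The log2 fold change was -0.74 during conversion (SE 0.16, edgeR adjusted p = 4.43e-05) and -0.31 with depletion (95% interval -0.67 to 0.06, edgeR adjusted p = 0.191), on 70 to 188 counts per library. Over the libraries left out, the conversion value ranged from -0.91 to -0.60, and the weakest of these lay just past the fold threshold. The fall did not pass glmTreat, which tests against the fold threshold itself. The gene lies at chr19:29811991-29824312 (hg38, plus strand).

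*CDKN1A*, encoding p21, the CIP/KIP inhibitor that p53 induces, rose during conversion and was lower with depletion. It was at 120 and 104 CPM at 0 h, 315 and 326 CPM in control and 187 and 192 CPM in CTCF-depleted libraries. Replicates lay close together and none of the 3 groups overlapped, with the depleted libraries between the other groups. The rise was 2.88-fold in control (log2 fold change 1.52, SE 0.05, edgeR adjusted p = 3.06e-33) and 1.70-fold with depletion (log2 fold change 0.77, SE 0.05, edgeR adjusted p = 6.15e-19). The direct comparison of the 96 h groups gave 0.592 times the control level with depletion (95% interval 0.552 to 0.635, log2 fold change -0.76, SE 0.05, edgeR adjusted p = 6.69e-19). Leaving out each library in turn gave log2 fold changes from -0.78 to -0.73, all past the thresholds.

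The promoter of *CDKN1A*, as the 1 listed start site in RefSeq gives it (GRCh38.p14, chr6:36678464-36678763, plus strand, 250 bases before to 50 bases after the start), is shown because this gene was the member with lower expression after CTCF depletion. G and C made up 74.3% of it, against a median of 58.7% over all promoters in the table:
CDKN1A promoter: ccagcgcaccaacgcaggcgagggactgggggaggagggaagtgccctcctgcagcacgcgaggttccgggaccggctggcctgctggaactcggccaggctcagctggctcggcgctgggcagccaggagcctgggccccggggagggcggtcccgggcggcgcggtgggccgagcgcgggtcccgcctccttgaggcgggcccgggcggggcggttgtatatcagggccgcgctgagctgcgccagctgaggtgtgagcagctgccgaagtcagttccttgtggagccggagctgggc
No base is in capitals, since none of the motifs searched on either strand occurred in this window: the E2F motif TTTNNCGC, the C/EBP motif TTGCNNAA, the cell cycle homology region TTTGAA and the CTCF core motif. Over 35116 promoters of 300 bases in the table, these were present in 6.89%, 10.5%, 15.2% and 1.05%, respectively. Their absence says only that these letters are not in the window.

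*CDKN1B*, encoding p27, the CIP/KIP inhibitor linked to quiescence, had its highest level in control libraries. It was at 55.3 and 64.0 CPM at 0 h, 81.8 and 92.1 CPM in control and 62.0 and 61.0 CPM in CTCF-depleted libraries. The depleted libraries lay within the range of those at 0 h, and the controls were above all others. The log2 fold change was 0.54 during conversion (SE 0.08, edgeR adjusted p = 9.89e-09) and -0.50 with depletion (SE 0.08, edgeR adjusted p = 2.82e-07), neither past the fold threshold, and 0.04 from 0 h to the depleted group (95% interval -0.12 to 0.20, edgeR adjusted p = 0.674). The first value passed the fold threshold without 0 h replicate 2 (0.65) or control replicate 1 (0.62). The gene lies at chr12:12685498-12722369 (hg38, plus strand), and *GPR19*, which overlaps it on the other strand, had at most 14 counts in a library.

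*CDKN2C*, encoding the INK4 inhibitor p18, rose from a trace. Its counts were 2 and 7 at 0 h, 34 and 30 in control and 34 and 18 with depletion. The libraries at 96 h were above those at 0 h, and the 96 h groups overlapped. The log2 fold change during conversion was 2.86 (SE 0.49, edgeR adjusted p = 6.37e-07), and the ratio of summed counts was 7.4 (exact 95% interval 3.66 to 16.9, counting error only). With depletion against control it was -0.27 (95% interval -0.95 to 0.41, edgeR adjusted p = 0.577), an interval too wide to place the groups against each other at this depth. The conversion value was 2.44 without 0 h replicate 1 and 3.74 without 0 h replicate 2, past the thresholds in both cases, and the value with depletion was -0.80 without depleted replicate 1 and 0.12 without depleted replicate 2.

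*CDKN2D*, encoding the INK4 inhibitor p19, rose in both 96 h groups. It was at 11.04 and 10.13 CPM at 0 h, 18.3 and 15.2 CPM in control and 17.5 and 15.4 CPM in CTCF-depleted libraries. The 0 h libraries were lowest, and the depleted libraries lay within the range of the controls. The log2 fold change was 0.67 during conversion (SE 0.14, edgeR adjusted p = 4.08e-05) and -0.03 with depletion (95% interval -0.30 to 0.24, edgeR adjusted p = 0.903). The conversion value was close to the fold threshold and lay under it without control replicate 1 (0.53) and with upper-quartile scaling (0.55). The change from 0 h to the depleted group was 0.64 (SE 0.14, edgeR adjusted p = 7.84e-05), and it too lay under the threshold without 0 h replicate 2 (0.57), without depleted replicate 1 (0.55) and with upper-quartile scaling (0.56). Neither change passed glmTreat, which tests against the fold threshold itself (adjusted p = 0.272 and 0.317).

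RefSeq promoters were listed for 8 of the 10 genes, with 13 start sites in all, and *CCND1* and *CCND2* had no entry. Among them, the E2F motif occurred only at *CDKN2D* and the C/EBP motif only at 2 of the 3 *CDKN2C* start sites, and the other motifs at none. These sequences are shown because they hold the matches, and they were picked after the matches were seen. The E2F match (capitals) begins 216 bases before the *CDKN2D* start site (chr19:10568930-10569229, minus strand):
CDKN2D promoter: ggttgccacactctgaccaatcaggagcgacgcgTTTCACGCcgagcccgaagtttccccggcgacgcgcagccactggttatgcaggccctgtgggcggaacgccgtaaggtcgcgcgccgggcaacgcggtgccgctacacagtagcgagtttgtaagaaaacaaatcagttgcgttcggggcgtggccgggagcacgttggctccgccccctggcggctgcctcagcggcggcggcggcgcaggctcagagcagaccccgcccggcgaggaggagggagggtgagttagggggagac
The C/EBP matches (capitals, the first on the opposite strand) begin 110 and 81 bases before the *CDKN2C* start sites at chr1:50960495-50960794 and chr1:50969995-50970294, both on the plus strand:
CDKN2C promoter 1: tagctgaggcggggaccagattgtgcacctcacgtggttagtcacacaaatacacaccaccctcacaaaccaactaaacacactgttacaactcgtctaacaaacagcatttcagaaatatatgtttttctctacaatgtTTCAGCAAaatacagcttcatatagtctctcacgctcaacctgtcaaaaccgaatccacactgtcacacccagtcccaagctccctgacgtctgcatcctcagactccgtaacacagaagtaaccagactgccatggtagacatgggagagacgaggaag
CDKN2C promoter 3: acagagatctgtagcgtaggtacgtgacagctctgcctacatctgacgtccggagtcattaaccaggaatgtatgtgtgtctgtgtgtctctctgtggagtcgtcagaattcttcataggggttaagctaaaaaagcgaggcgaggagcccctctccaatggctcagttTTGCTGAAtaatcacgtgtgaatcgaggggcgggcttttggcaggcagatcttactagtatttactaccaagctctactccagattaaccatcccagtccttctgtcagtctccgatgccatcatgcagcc
A match describes the letters and does not show that a factor binds there.

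**Figure D3:**
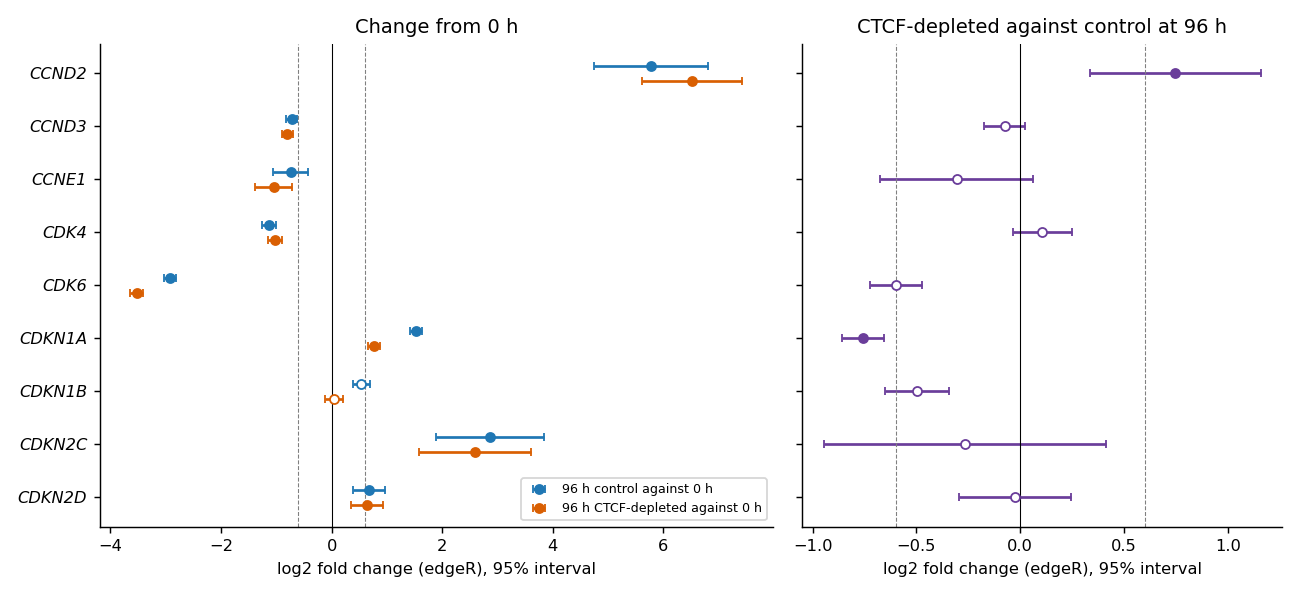
Log2 fold change with its 95% interval (horizontal axis, edgeR) of the 9 tested genes for both changes from 0 h (left) and for CTCF-depleted against control at 96 h (right). Filled points passed both thresholds, open points did not, and dashed lines mark the fold threshold; *CDKN1A* is the 1 filled point below 0 on the right and *CDK6* lies almost on the line.

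Among the remaining inhibitors of both families, 2 of 3 were tested, and both rose during conversion and were lower with depletion than in control. *CDKN1C*, encoding p57, was at 2.99 and 1.43 CPM at 0 h, 35.5 and 37.1 CPM in control and 19.9 and 17.5 CPM with depletion. *CDKN2A*, whose counts join the INK4 inhibitor p16 and the unrelated protein ARF, was at 16.9 and 18.5 CPM at 0 h, 80.9 and 75.7 CPM in control and 36.0 and 36.6 CPM with depletion. Their log2 fold changes were 4.11 (SE 0.17) and 2.14 (SE 0.09) during conversion, and -0.96 (SE 0.12) and -1.11 (SE 0.08) with depletion (edgeR adjusted p = 9.51e-10 and 6.07e-18). *CDKN2B* had at most 1 count in any library and was not tested. Per kilobase of the canonical transcript, the CIP/KIP sum was 78.9 ± 3.16 CPM at 0 h (SD, n = 2), 207.9 ± 7.36 in control and 125.6 ± 0.599 with depletion, and the INK4 sum was 25.9 ± 0.937, 94.7 ± 5.50 and 51.1 ± 1.69 CPM. With the length of all annotated exons, a choice added after seeing the data, the CIP/KIP sums were 44.7, 131.0 and 77.5 CPM per kilobase and the INK4 sums 11.7, 32.2 and 21.1, and the share of *CDKN2A* in the INK4 sum at 0 h was 38.9% in place of 69.9%. By either length the inhibitor sums with depletion were between those of the other groups, while the kinase sums of the 96 h groups overlapped. The place of the INK4 sum rested on *CDKN2A*, which held 84.6% of it in control and 72.7% with depletion by the canonical length. The levels of *CDKN2C* and *CDKN2D* overlapped between the 96 h groups.

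Beyond these inhibitors, further genes of the G1 pathway, proliferation markers of later cell cycle phases and p53 targets were examined. With the inhibitors above as the first, they formed 8 lists with 82 genes, of which 81 were tested. They are called the pathway lists here, although not all are G1 genes. Over all lists, 18 genes (22.2%) rose and 38 (46.9%) fell during conversion, where 25.4% and 22.9% of all genes tested did. With depletion against control, 28 (34.6%) were lower and 0 were higher by edgeR's thresholds, where 7.03% and 5.41% of all genes were. At an unadjusted p under 0.05, 56 had lower and 5 had higher values, and DESeq2 called 25 lower and 0 higher. Of the 28 genes that edgeR called lower, 10 were proliferation markers of S, G2 and M phase. The same shares of all genes are the background to the count in each list. The median log2 fold change over all genes tested was 0.02 during conversion and -0.03 with depletion.

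Of 8 other G1/S cyclins, kinases and CDK activators, 4 fell and 1 rose during conversion (median log2 fold change -0.42). Those that fell were *CDK2*, the kinase of cyclins E and A (-1.53 on the log2 scale), *CDC25A*, a phosphatase that activates it (-1.65), *CCNA2* (-0.90) and *MNAT1*, a subunit of the CDK-activating kinase (-0.71). *CCNA1*, the other A-type cyclin, moved the other way, from 0.83 and 0.75 CPM at 0 h to 299 and 295 CPM in control (log2 fold change 8.55, SE 0.11, edgeR adjusted p = 5.84e-54). With depletion *CCNA1* was at 170 and 173 CPM, below both controls (log2 fold change -0.79), and *CCNA2* was also lower (-0.85), while *CDK2* was not past the thresholds (-0.18, edgeR adjusted p = 0.133).

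Of 13 RB pocket proteins, E2F and DP factors, 5 fell during conversion and 1 rose (median -0.46). The log2 fold changes were -1.74 for *E2F1* and -1.23 for *E2F2*, both activators, -2.52 for *E2F5*, -0.76 for *E2F6* and -1.49 for *E2F7*, and *RBL2*, which encodes the pocket protein p130 of quiescent cells, rose by 0.89. With depletion 5 were lower than in control and 0 higher (median -0.25), where 7 had lower and 1 had higher values at an unadjusted p under 0.05 and DESeq2 called 4 lower and 0 higher. These were *E2F2* (-1.24), *E2F8* (-1.02), the DP factor *TFDP2* (-0.75), *E2F1* (-0.68) and the pocket protein *RBL1* (-0.61). *RBL2* was at 173 and 177 CPM in control and 173 and 175 CPM with depletion, with a log2 fold change of -0.01.

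Of the 5 genes of the MuvB core, which joins pocket proteins or MYBL2 to cell cycle promoters, 0 passed the thresholds during conversion by edgeR or DESeq2, and all 5 had an unadjusted p under 0.05, 2 of them with higher and 3 with lower values. With depletion *LIN9* was lower (-0.91) and the other 4 did not pass. Of 12 ubiquitin ligase genes that act on G1 cyclins and CDK inhibitors, 7 fell during conversion (median -0.69). The largest decreases were those of *SKP2*, the F-box protein that targets p27 (-2.39 on the log2 scale), *DTL*, which targets p21 and CDT1 (-1.47), and *CKS1B*, the cofactor of SKP2 (-0.98). With depletion only *DTL* passed (-0.69), and *SKP2* was at 28.9 and 24.4 CPM in control and 29.4 and 31.0 CPM with depletion.

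Of 16 G1/S genes driven by E2F, 14 fell during conversion (median -1.23), led by *UHRF1* (-2.38), *MYBL2* (-2.13) and the replication licensing gene *CDC6* (-1.83). With depletion 6 were lower than in control (median -0.57): *UHRF1* (-1.002), *CCNA2* (-0.85), *MYBL2* (-0.80), the helicase genes *MCM2* (-0.74) and *MCM7* (-0.68), and *CDT1* (-0.68). All 16 had negative values and 15 of them an adjusted p under 0.01 in edgeR. *CCNA2* is also counted in the list of G1/S cyclins above, as is *CCNE2*.

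Of 12 proliferation markers of S, G2 and M phase, 9 fell during conversion (median -0.80), led by *BIRC5* (-1.20), *AURKB* (-1.09) and *CCNB1* (-1.04). The other 3, *MKI67* (-0.22), *CCNB2* (-0.54) and *FOXM1* (-0.55), had lower values that did not pass the fold threshold and are named because they were few. With depletion 10 of 12 were lower than in control (median -0.69), led by *FOXM1* (-0.79), *TOP2A* (-0.78) and *CDC20* (-0.78). The summed level of the 12 markers was 2647 and 2658 CPM at 0 h, 1794 and 1866 CPM in control and 1128 and 1117 CPM with depletion. A large part of each sum was *MKI67*, at 1034 and 1059 CPM, 869 and 930 CPM, and 552 and 552 CPM, respectively. Proliferation markers were lowest in the same libraries in which *CDKN1A*, *CDKN1C* and *CDKN2A* were lower than in control.

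Since *CDKN1A* is a p53 target, 15 other p53 targets were set beside it. During conversion 14 of 15 rose (median 1.25), led by *FAS* (4.74), *TP53I3* (3.36) and *SESN1* (2.82), and *MDM2* (0.12) did not pass. With depletion 2 were lower than in control, *TP53I3* (-0.93) and *BBC3* (-0.63), and 0 were higher by edgeR's thresholds. At an unadjusted p under 0.05, 8 had lower and 2 had higher values, and DESeq2 called 1 lower and 0 higher. At an adjusted p under 0.01 with no fold threshold, 7 were lower and 2 were higher, and the values of the 15 genes ranged from -0.93 to 0.49 (median -0.13). *TP53I3* rested on few counts, 3 and 8 at 0 h, 66 and 45 in control and 25 and 32 with depletion. Its 95% interval with depletion was -1.50 to -0.35, and *BBC3* lay close to the fold threshold.

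**Figure D4:**
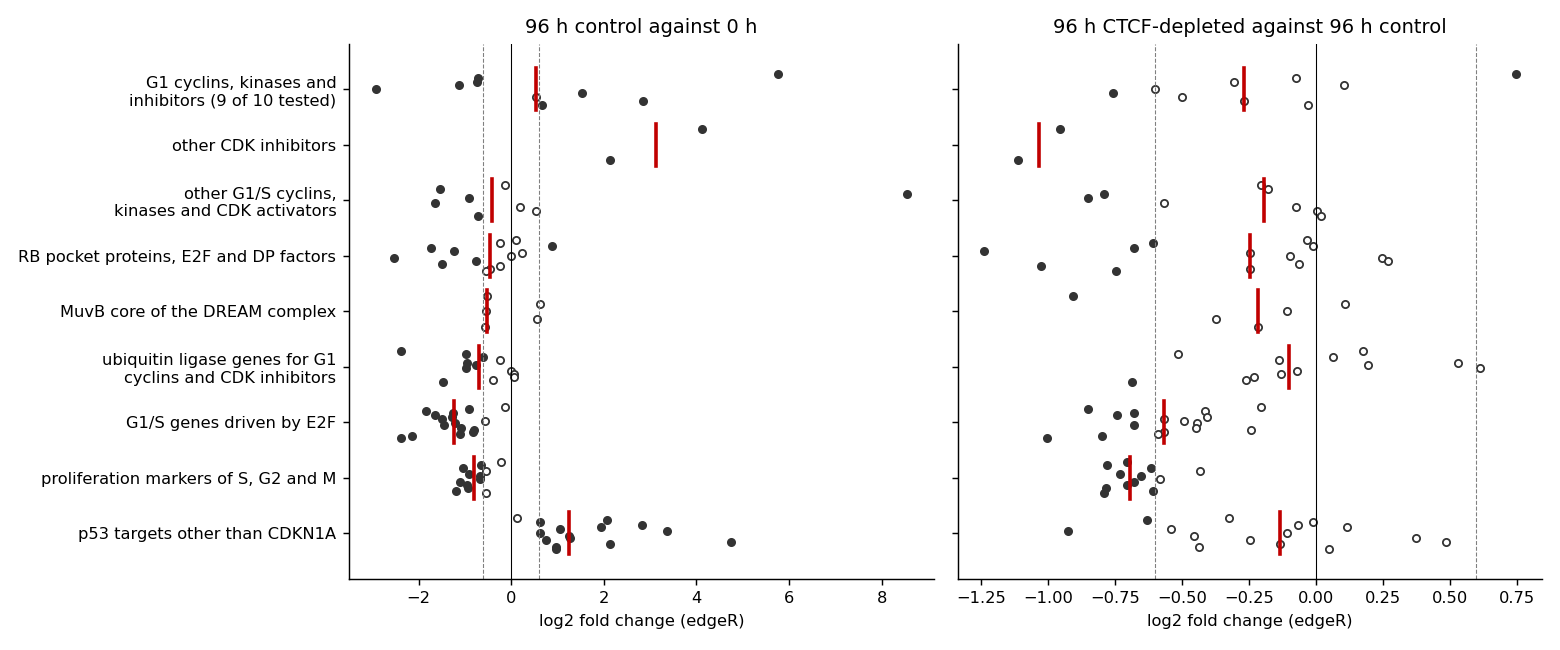
Log2 fold change (horizontal axis, edgeR) of each tested gene (points; filled where both thresholds were passed) in the G1 genes and the 8 lists around them, with the median of each list (thick bar) and the fold threshold (dashed), for control against 0 h (left) and CTCF-depleted against control (right). The p53 targets lay to the right of 0 during conversion, and the E2F-driven genes and proliferation markers lay to the left of 0 in both comparisons.

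The genes most like each called gene were sought over the 14758 genes tested, by the Euclidean distance between the 6 log2 CPM values after centring on their mean. For *CDKN1A* these were *MYO15B*, *UBXN10* and *TMSB4X*, at distances of 0.176, 0.178 and 0.182. For *CDK6* they were *TMSB15A*, *IKZF2* and *PBK*, at 0.225, 0.225 and 0.244, and for *CCND2* they included *TLR5* and *GPR18*, at 0.274 and 0.315. *CCND3* was closest to *PSMB1*, *MTCH2* and *AP4M1* (0.0575 to 0.0797), *CDK4* to *ZFP1*, *POMP* and *TRMT10C* (0.067 to 0.12) and *CCNE1* to *LONP1*, *PRSS53* and *LOC728715* (0.122 to 0.144). *CDKN2C* was closest to *C10orf35*, *RET* and *MIR3161* (0.295 to 0.527) and *CDKN2D* to *BAK1*, *CYB561D2* and *C19orf10* (0.118 to 0.15). These distances rest on 6 libraries in 3 groups and describe likeness of pattern in these samples.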

How the data were processed

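RNA-seq was measured in 6 libraries of 1 BLaER subclone, with 2 biological replicates in each of 3 groups. The p-values concern these cultures only. With so few libraries, edgeR took the spread of each gene largely from all genes together (prior degrees of freedom 51.7). Raw counts per gene were made and deposited by the authors. Per the methods and the submitters' processing notes, reads were aligned to hg38 with STAR 2.6.1d in the nf-core/rnaseq pipeline and protein-coding exons were counted with featureCounts 2.0.6. The counts used here nevertheless include noncoding genes, such as *MIR3161*. The annotation release and strand setting are not given in the sources used here.

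All 6 libraries (9273470 to 12718780 counts) entered 1 quasi-likelihood fit in edgeR 4.0.16 (R 4.3.3) with TMM scaling, filterByExpr and condition as the only term, and Benjamini-Hochberg adjustment ran over 14758 genes. Thresholds were those of the study's methods (adjusted p under 0.01, absolute log2 fold change above 0.6). CPM values used the TMM-scaled library sizes. Exon lengths and positions came from GENCODE release 44, and promoters from RefSeq (GRCh38.p14). Intervals of ratios of low counts are exact and cover counting error only. Python 3.11.15, pandas 2.3.3, scipy 1.17.1 and matplotlib 3.10.9 gave the summaries and plots.

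On simulated data for CTCF-depleted against control over 14480 genes, the fit called 92 of 100 genes changed 2-fold, 34 of 100 changed 1.5-fold and 1 unchanged gene. The simulation gave every gene the same spread (coefficient of variation 3.96%) and changed only genes above 1 CPM in control. It therefore does not show how the fit performs on genes with a larger spread or fewer counts. Replicates differed by more than sampling noise (chi-square per degree of freedom 1.73 to 2.76). No effect shared by replicate number was seen: the correlations of replicate differences between groups were -0.0194, 0.0109 and -0.0294. Whether the cultures were run in pairs is not stated in the sources used here.

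Members and lists were chosen with earlier results of these data known. Named genes were all 10 members, and of each list those past the thresholds or, where these exceeded 6, the 3 with the largest change in each direction. Other genes named were chosen after their values were seen. Some genes that the rule covers are not reported here. Alternatives were DESeq2 1.42.0, other scalings, filters and thresholds, glmTreat, a fit restricted to the 4 libraries of the comparison, the replicate block and leaving out each library.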

Additional observations from a re-analysis of the deposited data

How the results depend on the processing

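No member called under the main settings reversed its direction under any alternative, and of 372 log2 fold changes of members under alternatives 336 kept their direction and their side of the thresholds, 21 lost and 7 gained a call, and 8 uncalled values changed sign. With the replicate block, the member counts were the same as without it (4 higher and 4 lower in control against 0 h, 1 and 1 with depletion), and those of the pathway lists were 18 higher and 38 lower, and 0 and 28. In control against 0 h, members called higher numbered 2 in place of 4 with at least 10 counts in every library, since that filter removed *CCND2* and *CDKN2C*, and those called lower 2 in place of 4 with a log2 threshold of 1. In CTCF-depleted against 0 h, those called higher numbered 2 in place of 4 under each of these settings. With depletion against control, the 1 member called higher (*CCND2*) became 0 with a log2 threshold of 1, glmTreat, DESeq2 or at least 10 counts in every library, and ranged from 0 to 1 over the libraries left out. The 1 member called lower (*CDKN1A*) became 0 with a log2 threshold of 1 and 3 at an adjusted p under 0.05 with no fold threshold, which added *CDK6* and *CDKN1B*, and ranged from 1 to 2 over the libraries left out. For the pathway lists, 22 in place of 38 genes fell in control against 0 h with a log2 threshold of 1. With depletion, 28 lower genes became 53 at an adjusted p under 0.05 with no fold threshold, 4 with a log2 threshold of 1 and 9 with glmTreat, and 0 higher genes became 3 at an adjusted p under 0.05 with no fold threshold and ranged from 0 to 1 over the libraries left out. With the length of all annotated exons, added after seeing the data, the *CDK6* share of the kinase pair was 53.1% in place of 41.8% at 0 h, 24.8% in place of 17.3% in control and 16.7% in place of 11.3% with depletion, and the *CCND2* share of the D-type cyclins 0.0148%, 1.45% and 2.54% in place of 0.00641%, 0.635% and 1.12%. Counts of at most 3 per library left *CCND1* and *CDKN2B* without a test, and those under 10 at 0 h left the size of the changes of *CCND2* and *CDKN2C* uncertain.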
